A study of Urocitellus parryii with 24 samples.

Results

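The comparison of early torpor with late arousal sets livers of hibernating Arctic ground squirrels (AGS, Urocitellus parryii) in the cold, inactive state beside those of other animals late in a warm interlude, and no animal was sampled during the cooling itself. Its members are 8 of the 24 liver arrays of the series, chosen by the stage in the sample labels. Each array holds the liver RNA of 1 animal. The 4 early torpor animals (04-81, 04-15, 04-16, and 2000-43) were taken 4 to 6 days into a torpor bout, and the 4 late arousal animals (04-72, 04-30, 04-31, and 2000-22) were taken 7 to 8 h after body temperature (Tb) had passed 30 °C on spontaneous rewarming. All 8 were wild-caught, hibernating AGS that carried a Tb transmitter and had no food through hibernation. Apart from the anesthesia at killing, no genotype or drug treatment sets the groups apart, and ages are not given in the labels. Torpid animals were killed without anesthesia and aroused animals under isoflurane, so that anesthesia and stage cannot be told apart. The other winter groups were 5 animals in late torpor (8 to 12 days into a bout) and 4 in early arousal (1 to 2 h after Tb passed 30 °C), and 7 summer animals that had finished reproduction were the group outside hibernation.

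Torpor bouts are days of low Tb and strongly reduced metabolism, broken by short arousals in which the animal rewarms on its own heat. As tissue cools, transcription and translation slow down, and both resume on rewarming. The liver supplies glucose, ketone bodies, lipoproteins, and plasma proteins, and fat is the main fuel of the hibernation season. Chaperones of the heat shock family refold proteins after temperature stress, while cold-inducible RNA-binding proteins such as CIRBP accumulate when mammalian cells are cooled mildly.

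Levels are given as the background-subtracted signal of a probe divided by the median of its array, and differences as early torpor minus late arousal on the log2 scale with the standard error (SE) of the fit. The threshold for a call was an adjusted p of 0.05 in limma, fitted over all 24 arrays. Levels of different probes cannot be set against each other. The 8 arrays had a median signal of 78.9 to 118 intensity units over a background of 14.6 to 19.9, and 8319 to 9114 of the 9600 probes had a signal over 2 times their background. Early torpor 2000-43 had the lowest signal, the highest background, and the fewest such probes. Late arousal 04-30 lay on an A2 filter and the other 7 on A1 filters. Its median correlation with the winter arrays on A1 filters was 0.912, and it scored 32.6 on the first principal component, which held 23.7% of the variance. The counts over all probes and those of each list by direction and at an unadjusted p under 0.05 are therefore also given without it. Gene symbols are those of the 1329 genes that the study selected by a test between states on these same arrays, so that membership in that list is not independent evidence of a change. Members of the gene lists below have a value where they are among these 1329 genes, and counts are over those members.

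By limma, no probe was called among 9597 tested (0%), and the smallest adjusted p, that of CIRBP, was 0.14. At an unadjusted p under 0.05 stood 773 probes (8.05%), of which 486 were higher in early torpor (5.06%) and 287 lower (2.99%). Under quantile normalization the same count was 717, with 355 higher, so that the share of higher probes among them was 49.5% in place of 62.9%. The 4 early torpor arrays lay wholly above the 4 late arousal arrays for 261 of 9495 probes with a value on every array (2.75%) and wholly below them for 163 (1.72%). A positive difference was found for 52.7% of all probes. The median difference was 0.02, and its 5th and 95th percentiles were -0.52 and 0.66. The median SE was 0.28. A single call in this table needed an unadjusted p of 5.21e-06, and the smallest was 1.45e-05. The 1329 named genes had larger shares past each of these limits. Among them 15.5% were higher and 6.09% lower at an unadjusted p under 0.05, 8.91% and 3.32% were higher and lower without overlap, and 63.4% had a positive difference, and the counts in the lists below are to be read against these shares. The 2 leading probes without a gene name were gene5898, at 17.5 to 43.4 in early torpor and 5.55 to 14.3 in late arousal, and gene6221, at 0.186 to 0.401 and 0.507 to 1.18.

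Without late arousal 04-30, 1 of 9592 probes was called (0.0104%). That probe, gene5293, carries MAGEE2, a member of the MAGE protein family. Groups were apart for 437 of 9511 probes with higher values in early torpor (4.59%) and 301 with lower values (3.16%), counts for which 1 value fewer has to be apart. The count at an unadjusted p under 0.05 was then 679 (7.08%), with 470 higher (4.9%) and 209 lower (2.18%), and 52.1% of all probes had a positive difference. Among the named genes 13.5% were then higher and 3.31% lower at that level (16.9% in all), 12.3% and 4.83% were higher and lower without overlap, and 62.2% had a positive difference. A one-way analysis of variance over the 5 groups, with the thresholds of the study's methods for q and Tukey's test, called 96 of 9600 probes (1%), 70 higher and 26 lower. This rule corrects for the 10 pairs of stages within a probe, but not for the number of probes at the pairwise step, and 56 of its 96 probes carry a symbol (4.21% of the named genes).

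CIRBP, the cold-inducible RNA-binding protein that stabilizes other transcripts, led the list. Its level was 8.14, 8.85, 8.11, and 6.44 in early torpor and 3.51, 1.44, 3.66, and 3.60 in late arousal. Every early torpor animal was above every late arousal animal, and late arousal 04-30 was the lowest of all 8. The difference was 1.45 (SE 0.27, 2.74-fold, adjusted p = 0.14), and without 04-30 it was 1.13 (adjusted p = 0.21). The late torpor range (6.78 to 10.6) overlapped that of early torpor, and the early arousal range (2.67 to 4.42) overlapped that of late arousal. Late torpor exceeded early arousal by 1.30 (adjusted p = 0.017), in other animals. The summer animals lay between 1.03 and 2.17, below all winter animals but late arousal 04-30. Summer 2000-13 and 20-55 were on A1 filters, and the other summer animals, like late arousal 04-30, were on A2 filters. The share of the filter in the low summer level was not tested. These 5 stages are drawn in the plot of levels by stage.

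MAGEE2 had a different course. It stood at 3.02, 3.19, 3.32, and 4.22 in early torpor and at 0.960, 2.49, 1.18, and 1.40 in late arousal. Late arousal 04-30 was the highest of its group, and the groups did not overlap. The difference was 1.27 (SE 0.27, adjusted p = 0.15) with all 8 arrays and 1.54 (SE 0.26, 2.92-fold, adjusted p = 0.037) without 04-30. Late torpor, at 1.58 to 2.08, lay wholly below early torpor, and its difference from early arousal was 0.39 (adjusted p = 0.60). The contrast between both torpor-arousal differences was 0.89 (unadjusted p = 0.027, adjusted p = 0.70), and so was not called.

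FN1, which encodes fibronectin, a plasma and matrix glycoprotein made by hepatocytes, was at 59.4, 37.9, 41.6, and 41.3 in early torpor and at 14.6, 12.5, 26.1, and 24.8 in late arousal. All early torpor animals lay above all late arousal animals. The difference was 1.26 (SE 0.30, adjusted p = 0.27), and late torpor exceeded early arousal by 1.19 (adjusted p = 0.048). MT1E, a metallothionein that binds zinc and copper, was at 89.5, 79.6, 89.4, and 97.5 in early torpor. In late arousal it was at 20.3, 51.5, 20.1, and 47.6, so that early torpor was tight and late arousal fell into a higher and a lower pair. The difference of MT1E was 1.49 (SE 0.39, 2.81-fold, adjusted p = 0.29). KLF9, a transcription factor induced by glucocorticoids and thyroid hormone, was at 4.10, 5.22, 5.85, and 6.28 against 2.71, 1.72, 2.80, and 2.61, with a difference of 1.13 (SE 0.28, adjusted p = 0.28).

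Among genes lower in early torpor, MTUS1, a microtubule-associated tumor suppressor, had the tightest groups of the leading 12. It stood at 0.795, 0.751, 0.840, and 0.777 in early torpor and at 1.39, 1.49, 1.31, and 1.59 in late arousal. The difference was -0.87 (SE 0.22, adjusted p = 0.29), and late torpor lay below early arousal by -0.82 (adjusted p = 0.064). PPP1R3C, a subunit that directs protein phosphatase 1 to glycogen and favors its synthesis, was at 3.59, 4.49, 4.84, and 5.45 in early torpor and at 6.89, 7.40, 14.1, and 27.6 in late arousal. All early torpor animals were low, and the late arousal animals spread widely. The difference was -1.39 (SE 0.41, adjusted p = 0.31). ACTR6, an actin-related protein of a chromatin remodeling complex, differed by -0.76 (0.761 to 0.958 against 1.21 to 1.80, adjusted p = 0.29).

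LASS2, a ceramide synthase, was at 1.69, 2.90, 3.16, and 2.41 in early torpor and at 4.71, 4.51, 4.57, and 3.62 in late arousal. Early torpor was thus the lower group here, while late torpor (3.37 to 5.08) was on average above early arousal (2.52 to 4.17), with overlapping ranges. The difference between both contrasts was -1.22 (unadjusted p = 0.0036), and the adjusted p of 0.51 did not pass. SMAD5, a signal transducer of bone morphogenetic proteins, differed by -1.03 (0.293 to 0.425 against 0.510 to 1.40). AUP1, a protein of lipid droplets and of endoplasmic reticulum quality control, differed by -0.68, PAQR9, a member of the progestin and adiponectin receptor family, by -0.79, and SCHIP1 by -0.80, or -0.49 without early torpor 04-15. Each had groups without overlap and an adjusted p between 0.31 and 0.40.

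**Figure D1:**
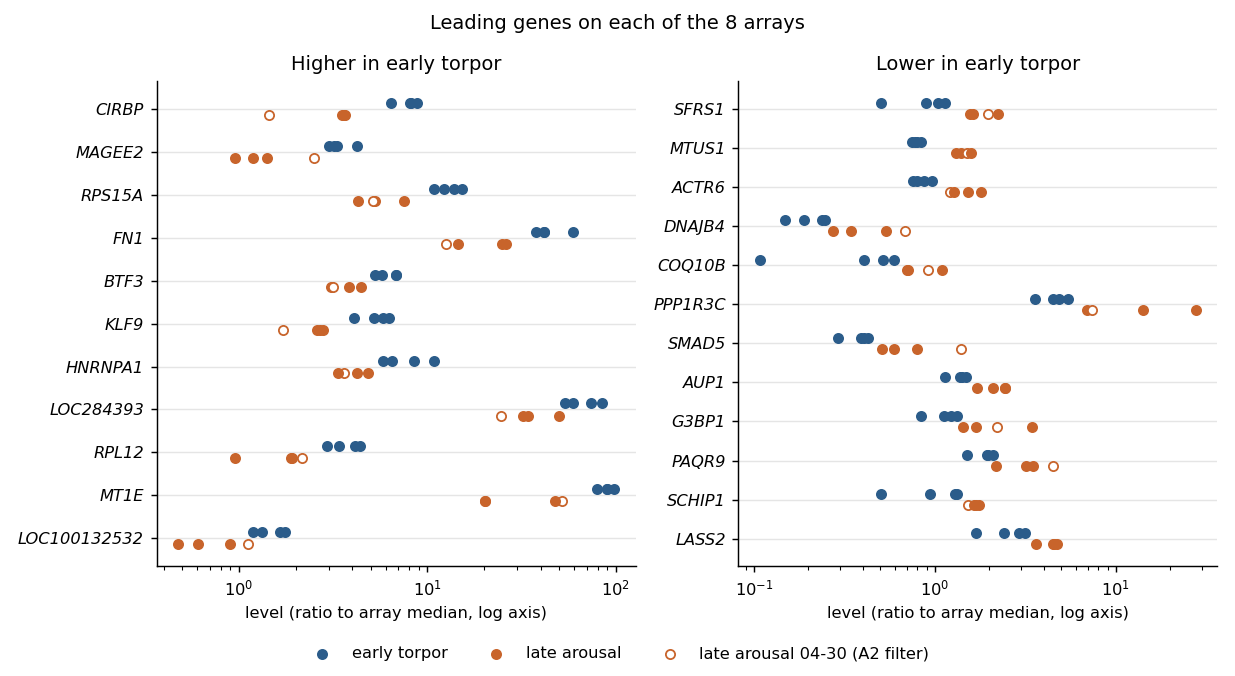
Level of 11 leading genes higher and 12 lower in early torpor on each of the 8 arrays, as the ratio to the array median on a log axis. Filled blue points are the 4 early torpor animals, orange points the late arousal animals, and the open point is late arousal 04-30 on the A2 filter. The groups do not overlap for any gene drawn, which is part of how they were chosen, and for CIRBP the open point at 1.44 is apart from the other 3 at 3.51 to 3.66.

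**Figure D2:**
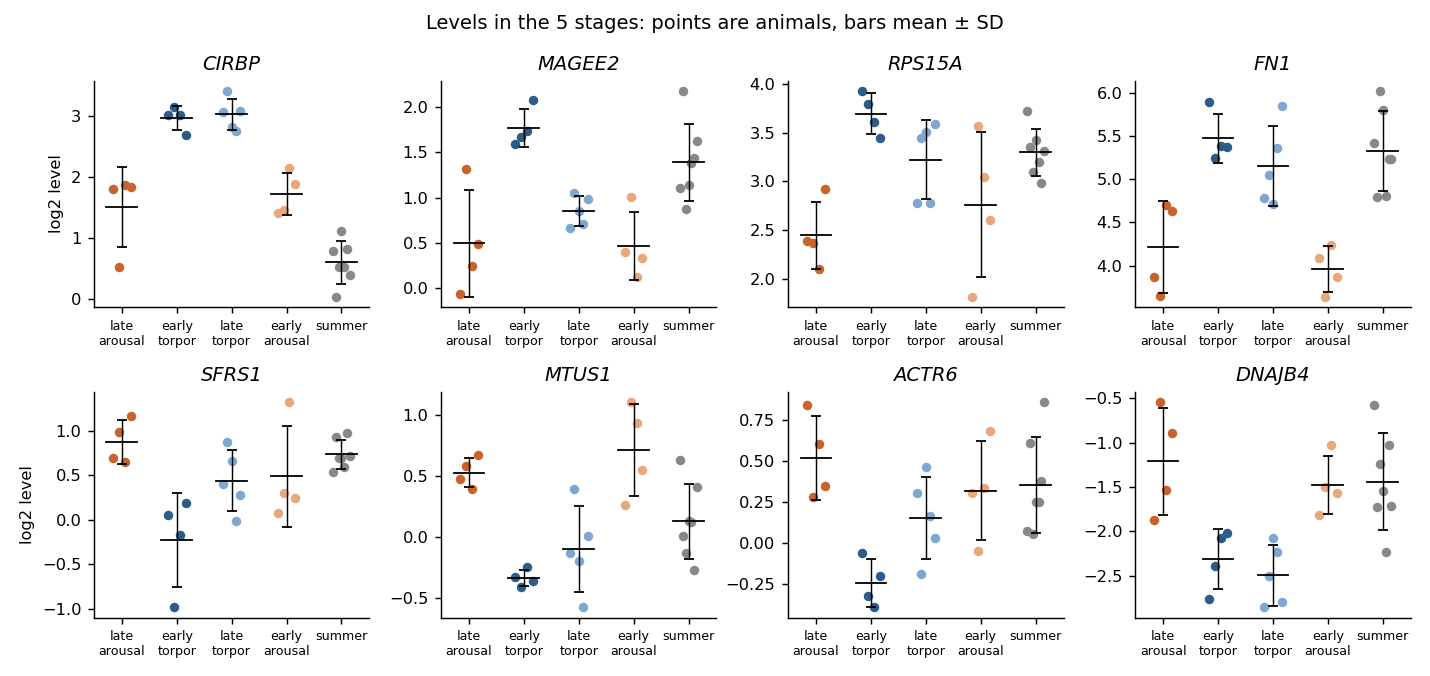
Log2 level of the 4 leading genes in each direction in the 5 stages, with 1 point per animal and the mean ± SD as bars (n = 4, 4, 5, 4, and 7 from left to right). CIRBP is high in both torpor stages (means 2.97 and 3.03) and lowest in summer (0.60), MAGEE2 is higher in early torpor (1.77) than in the other winter stages, and MTUS1 is low in early torpor (-0.34). Most summer arrays and late arousal 04-30 are on A2 filters, and the share of the filter was not tested.

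Ribosomal protein genes, which encode the structural proteins of both ribosomal subunits, were the list with the highest median difference. All 19 were higher in early torpor, 16 at an unadjusted p under 0.05 and 12 with no overlap, where 15.5% and 8.91% of the named genes and 5.06% and 2.75% of all probes did so. Ribosomal probes that did not pass the study's test between states have no symbol here. The study, on these same arrays, reported ribosome genes as enriched among those higher in torpor than in arousal. The shared direction of the 19 was therefore in part set by the selection. The median difference was 0.83 (range 0.24 to 1.34), against 0.02 over all probes and 0.17 over the 1329 named genes. The median deviation of the list from its genes' own means was 0.40, 0.57, 0.32, and 0.40 in the early torpor animals. In the late arousal animals it was -0.29, -0.60, -0.57, and -0.07, so that every early torpor animal was above every late arousal animal. None of the 19 was called after adjustment. Without late arousal 04-30 all 19 were again higher, 13 at an unadjusted p under 0.05 and 12 with no overlap, with a median of 0.76, and under quantile normalization the 19 were higher with a median of 0.66.

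RPS15A, a protein of the small subunit, was at 15.2, 13.9, 12.2, and 10.9 in early torpor and at 5.25, 5.17, 4.30, and 7.56 in late arousal, a difference of 1.25 (SE 0.28, adjusted p = 0.22). RPL41, which encodes a very short peptide of the large subunit, was at 153, 126, 154, and 119 against 58.8, 78.4, 28.5, and 97.8, a difference of 1.20 (SE 0.33). RPL12, of the large subunit, differed by 1.15 (2.93 to 4.41 against 0.950 to 2.17). In these 3 genes no late arousal animal reached the lowest early torpor animal. At the other torpor-arousal pair all 19 were likewise higher in late torpor than in early arousal, with a median of 0.57, and none was called. The animals of that pair also fed the study's selection of these genes, so the shared direction is no independent check. Ribosomal protein genes have many near-identical processed copies in mammalian genomes, and a cDNA probe cannot separate them.

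Translation factors and associated proteins were higher in 11 of 15 genes, 5 at an unadjusted p under 0.05 and 2 with no overlap, with a median of 0.25. The same numbers were 11, 3, and 2 and the median was 0.33 without late arousal 04-30, and without late arousal 04-72 the median was 0.45. With all 8 arrays 63.4% of the named genes were higher, 15.5% at an unadjusted p under 0.05 and 8.91% with no overlap. BTF3, the beta subunit of the complex that binds nascent chains at the ribosome, was at 5.76, 5.29, 6.86, and 6.84 in early torpor and at 3.08, 3.17, 4.47, and 3.83 in late arousal. Its groups were apart, with a difference of 0.77 (SE 0.19, adjusted p = 0.28). EIF3G, a subunit of the initiation factor that joins the small ribosomal subunit to mRNA, differed by 0.85 (0.906 to 1.35 against 0.432 to 0.759). EIF1AX, a start codon scanning factor, differed by 0.72, and TPT1, a highly expressed growth-related protein, by 1.13, both with overlapping groups. The helicases of the cap-binding complex went the other way in sign, with EIF4A2 at -0.57 and EIF4A1 at -0.25 (0.02 without 04-30), and neither passed the test.

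Cold-responsive and clock genes were measured by 7 named probes of 18 genes listed, and 5 were higher. Beside CIRBP and KLF9, ID2, an inhibitor of basic helix-loop-helix factors, differed by 0.80 (14.9, 8.49, 6.56, and 11.2 against 4.73, 9.86, 6.95, and 3.17), with overlap, and by 0.52 without late arousal 2000-22. TEF, an activator of the clock output pathway, differed by 0.40, WEE1, a cell cycle kinase under clock control, by 0.11, CSNK1D, a kinase of the period proteins, by -0.06, and USF1, an E-box factor, by -0.37. None of these 5 had groups apart, and without 04-30 the last 3 differed by -0.11, 0.02, and -0.24. At an unadjusted p under 0.05 were 2 of the 7, or 3 without 04-30, all higher. The median was 0.40 with all arrays and 0.27 without 04-30, where 5 were again higher. Of the named genes, 15.5% were higher at an unadjusted p under 0.05 with all arrays and 13.5% without 04-30.

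RNA-binding and splicing proteins went both ways. Of 40 genes, 25 were higher and 15 lower, 8 and 3 at an unadjusted p under 0.05, and 5 and 3 without overlap. The median was 0.21. Over all named genes 63.4% were higher, 15.5% and 6.09% were higher and lower at that level, and the median was 0.17. The share of higher genes and the median of this list were thus close to those of the named genes. Without late arousal 04-30, 25 and 15 were again higher and lower, 6 and 3 at that level, with a median of 0.20, and without late arousal 04-72 the median was 0.11. HNRNPA1, an abundant splicing repressor and mRNA-packaging protein, was at 5.79, 6.49, 8.55, and 10.8 in early torpor and at 4.87, 3.61, 4.26, and 3.35 in late arousal (difference 0.95, SE 0.24, adjusted p = 0.29). SF3B1, the core of the branch site recognition complex, was at 3.22, 2.30, 4.18, and 3.61 against 1.48, 1.24, 1.40, and 2.38. One late arousal animal (2000-22) reached into the range of early torpor, and the difference was 1.05 (SE 0.28).

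SFRS1, an SR protein that promotes exon inclusion, was the leading gene in the lower direction. It was at 1.04, 0.506, 0.891, and 1.14 in early torpor and at 1.61, 1.97, 1.57, and 2.24 in late arousal, with no overlap and a difference of -1.10 (SE 0.26, adjusted p = 0.28). In late torpor it was at 0.993 to 1.83 and in early arousal at 1.06 to 2.50, a difference of -0.05. G3BP1, a nucleator of stress granules, differed by -0.89 (0.839 to 1.32 against 1.43 to 3.42), and TARDBP, a splicing and mRNA stability protein, by -0.92. For these 2 genes late torpor was also below early arousal, by -0.80 and -0.81, with no call.

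Heat shock proteins and cochaperones were the list with the lowest median, -0.39. Of 21 genes 13 were lower and 8 higher, with 9 and 1 at an unadjusted p under 0.05, and 3 were lower without overlap. Among the named genes 6.09% were lower at that level and 3.32% lower without overlap. DNAJB4, a cochaperone of the HSP40 family, was at 0.148, 0.190, 0.238, and 0.247 in early torpor and at 0.274, 0.687, 0.345, and 0.538 in late arousal (difference -1.10, SE 0.31, adjusted p = 0.29). On 6 of these 8 arrays its signal was over 2 times the background. HSPH1, which reloads HSP70 with ATP, was at 2.73, 2.00, 1.65, and 2.34 against 2.09, 8.54, 3.58, and 4.50, and DNAJB9, a cochaperone of the endoplasmic reticulum, at 0.342 to 0.913 against 0.548 to 2.03. Both overlapped, with differences of -0.94 and -1.36, and that of HSPH1 was -0.59 without late arousal 04-30. HSPA8, the constitutive HSP70, differed by -0.75 with no overlap, and HSP90AA1 and HSP90AB1, whose coding sequences are alike, by -0.88 and -0.76. Without 04-30 these 3 differences were -0.43, -0.49, and -0.33.

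The heat shock difference was smaller without the array on the A2 filter. The median deviation of the list from its genes' own means was 0.71 in late arousal 04-30 and 0.09, 0.05, and 0.06 in the other late arousal animals. In early torpor it was -0.15, -0.34, -0.32, and -0.05. Without 04-30 the median of the list was -0.28, and the number of genes lower at an unadjusted p under 0.05 was 2 in place of 9. The counts by direction were again 13 lower and 8 higher, with 1 higher at that level. The share of the filter in the high values of 04-30 was not tested.

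**Figure D3:**
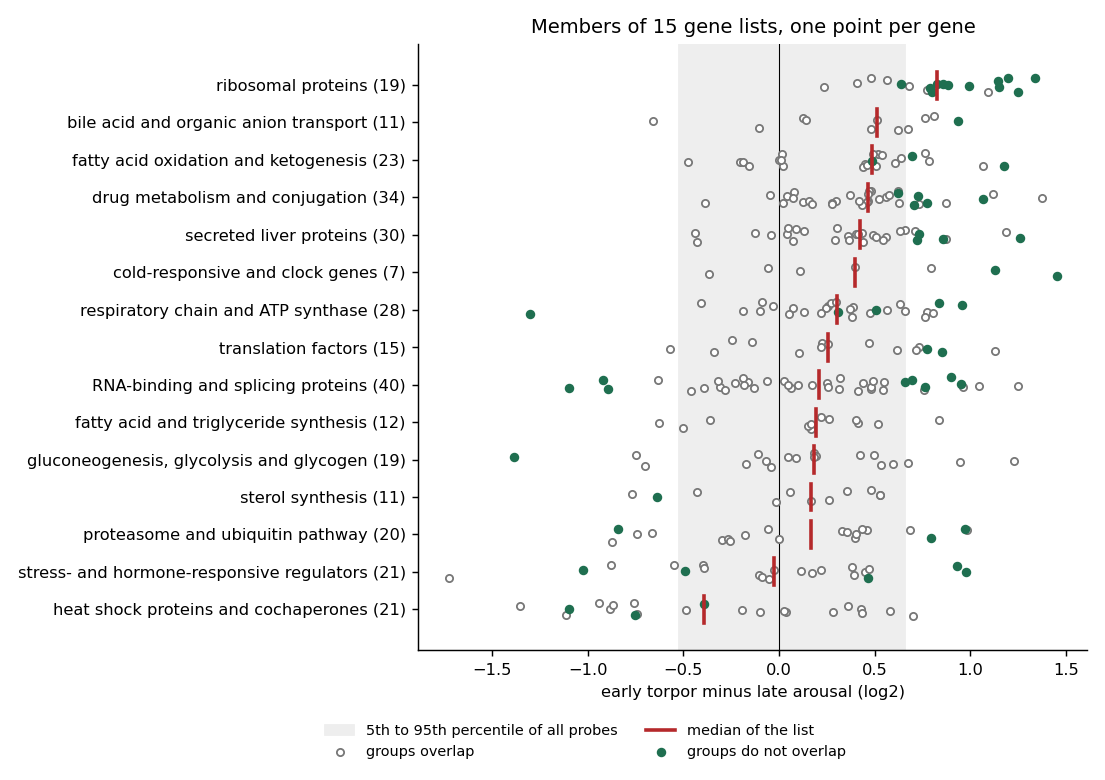
Difference between early torpor and late arousal (log2) for each member of the 15 gene lists, with the number of named members in parentheses. Filled points are genes whose groups do not overlap, the red bar is the median of the list, and the grey band spans -0.52 to 0.66, the 5th to 95th percentile of all probes. Ribosomal proteins lie to the right of 0 in all 19 cases with a median of 0.83, and heat shock proteins have the lowest median, -0.39.

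Genes of fatty acid oxidation and ketogenesis, the mitochondrial and peroxisomal steps that turn fat into acetyl-CoA and ketone bodies, were higher in 18 of 23 cases. Of these, 4 stood at an unadjusted p under 0.05 and 3 had no overlap, and none was lower at that level. Among the named genes 63.4% were higher, 15.5% at that level and 8.91% with no overlap, and 6.09% were lower at that level. The median of the list was 0.48. Without late arousal 04-30, 20 were higher and 3 lower, 5 and 0 at that level, with a median of 0.36. SLC27A2, which imports and activates very long chain fatty acids, was at 53.8, 49.0, 37.0, and 33.6 in early torpor and at 12.1, 28.3, 21.6, and 16.8 in late arousal. No late arousal value reached early torpor, and the difference was 1.18 (SE 0.33, adjusted p = 0.29). EHHADH, a peroxisomal enzyme of beta-oxidation, differed by 1.07 with overlap (25.9 to 57.5 against 8.69 to 28.9), and ETFDH, which passes electrons from acyl-CoA dehydrogenases to ubiquinone, by 0.77 (6.96 to 9.13 against 3.10 to 7.38).

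Late torpor and early arousal arrays were part of the study's selection of these genes, so that they are no independent check. All 23 genes of this list were higher in late torpor than in early arousal, with a median of 0.66 and no call. ACAA2 and ACOX2 differed there by 1.19 and 1.18, while between early torpor and late arousal their differences were 0.45 and 0.48. That of ACOX2 was 0.31 without late arousal 2000-22. The carnitine shuttle genes listed have no named probe here.

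Respiratory chain and ATP synthase genes were higher in 22 of 28 cases, 6 at an unadjusted p under 0.05 and 4 without overlap, and 1 was lower at that level, with a median of 0.30. There were 26 higher, 8 at that level, with a median of 0.35, when late arousal 04-30 was left out. Over the named genes with all 8 arrays 63.4% were higher, 15.5% at that level and 8.91% without overlap. NDUFA4, a small subunit of the electron transport chain, was at 1.41, 1.88, 2.13, and 1.52 in early torpor and at 0.963, 1.38, 1.03, and 0.442 in late arousal (difference 0.96, SE 0.28, adjusted p = 0.31), and without late arousal 2000-22 the difference was 0.63. NDUFA11, an accessory subunit of complex I, differed by 0.84 and ATP5A1, the catalytic-core alpha subunit of ATP synthase, by 0.51, both with groups apart. COQ10B, a coenzyme Q-binding protein, was lower, at 0.595, 0.517, 0.405, and 0.108 in early torpor against 0.698, 0.917, 0.711, and 1.10. It was lower in late torpor than in early arousal too, by -1.11 (adjusted p = 0.15), and its difference between early torpor and late arousal of -1.30 (SE 0.38) was -0.75 without animal 2000-43.

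Genes of gluconeogenesis, glycolysis, and glycogen split by sign, 12 higher and 7 lower, with 3 each at an unadjusted p under 0.05. The split was 15 higher and 4 lower, with 4 and 1 at that level, when late arousal 04-30 was left out. The median of 0.18 was then 0.28, and it was 0.01 under quantile normalization and 0.02 without late arousal 04-72 or without 2000-22. With all 8 arrays 63.4% of the named genes were higher and their median was 0.17, close to the values of this list. GOT2, the mitochondrial aspartate aminotransferase, was at 24.7, 23.7, 18.8, and 15.1 against 6.71, 20.6, 14.3, and 6.06, a difference of 0.95 (SE 0.32), with overlap through late arousal 04-30 alone. GAPDH differed by 0.67, or 0.36 without late arousal 2000-22, and MDH2, the mitochondrial malate dehydrogenase, by 0.60. PCK1, the rate-controlling enzyme of gluconeogenesis, differed by 1.23 with an unadjusted p of 0.12, since its animals spread widely, and by 0.53 without late arousal 2000-22. PFKP, a phosphofructokinase isoform, differed by -0.75 and was over 2 times the background on only 4 of the 8 arrays.

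Lipid synthesis showed no gene at an unadjusted p under 0.05, with or without late arousal 04-30. With all 8 arrays 15.5% and 6.09% of the named genes were higher and lower at that level. In all, 63.4% of the named genes were higher, with a median of 0.17. Fatty acid and triglyceride synthesis had 9 of 12 genes higher with a median of 0.19, or 8 of 12 with a median of 0.14 without late arousal 04-30, and the median was -0.02 without early torpor 2000-43. THRSP, a lipogenic nuclear protein, was at 62.1, 139, 40.6, and 179 in early torpor and at 41.0, 27.0, 88.7, and 62.7 in late arousal, a wide overlap around a difference of 0.84 (SE 0.42) that was 0.50 without early torpor 2000-43 and 0.54 without late arousal 04-30. FASN, the fatty acid synthase, differed by 0.17, and SCD, the stearoyl-CoA desaturase, by 0.15, and both changed sign with single arrays left out (-0.05 to 0.31 and -0.25 to 0.38). LPIN2, a phosphatidate phosphatase, was at 1.90 to 2.52 in early torpor, and in late arousal 04-31 it was at 9.87 while the other 3 were at 2.10 to 2.63.

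Sterol synthesis had 7 of 11 genes higher with and without late arousal 04-30, where 63.4% and 62.2% of the named genes were higher. Its median of 0.17 ranged from 0.02 (without early torpor 2000-43) to 0.29 (without 04-30) with single arrays left out. INSIG1, which retains the sterol sensor in the endoplasmic reticulum, was the single gene of both lists with groups apart over the 8 arrays. It was at 2.75, 2.06, 2.64, and 2.71 in early torpor and at 3.84, 3.78, 5.28, and 3.08 in late arousal, with a difference of -0.64 (SE 0.31, unadjusted p = 0.054). HMGCS1, an early enzyme of the pathway, ranged from 4.48 to 27.8 within late arousal. Its difference of -0.77 was -0.29 without late arousal 2000-22 and -1.16 without late arousal 04-72.

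Drug metabolism and conjugation genes, the cytochromes P450 and the enzymes that attach glutathione, glucuronate, or sulfate, were higher in 32 of 34 cases. At an unadjusted p under 0.05 stood 7, and 5 had no overlap. The median was 0.47, which became 0.30 (27 of 34 higher, 6 at that level) without late arousal 04-30 and 0.27 (26 of 34) under quantile normalization. Over the named genes with all 8 arrays 63.4% were higher, 15.5% at that level and 8.91% without overlap. GSTA3, an alpha class glutathione transferase, was at 41.9, 43.6, 42.9, and 36.9 in early torpor and at 17.3, 17.8, 23.2, and 21.1 in late arousal. Its 2 groups were each tight and wholly apart, and the difference was 1.07 (SE 0.30, adjusted p = 0.29). EPHX2, a soluble epoxide hydrolase, differed by 0.71 (10.8 to 13.9 against 6.66 to 9.68), GSTK1 by 0.73 (8.10 to 11.5 against 5.04 to 6.88). CYP3A5 differed by 1.37 with overlap, at 27.4 to 49.5 against 5.60 to 30.0. Families such as CYP3A, UGT1A, and GSTA share long stretches of sequence, and their probes may read more than 1 member.

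Secreted liver proteins were higher in 26 of 30 cases, 6 at an unadjusted p under 0.05 and 4 without overlap, with a median of 0.42. When late arousal 04-30 was left out, 25 were higher, 6 at that level, and the median was again 0.42. With all 8 arrays 63.4% of the named genes were higher, 15.5% at that level and 8.91% without overlap. APOB, the structural protein of very low density lipoproteins, was at 39.6, 38.6, 37.7, and 38.1 in early torpor and at 21.9, 13.3, 20.7, and 33.8 in late arousal. Early torpor spanned less than 2 units, and the difference was 0.86 (SE 0.23, adjusted p = 0.29). APOA2, an apolipoprotein of high density lipoproteins, differed by 0.72 (42.6 to 52.4 against 21.5 to 40.1). SERPINF1, a secreted anti-angiogenic factor, differed by 1.18 with overlap because early torpor 04-16 was at 0.448 while the other 3 were at 1.22 to 1.70. FGB, the fibrinogen beta chain, and A2M, a broad protease inhibitor, differed by -0.44 and -0.43 with overlap, and by -0.20 without late arousal 04-31 and 0.09 without late arousal 2000-22, respectively. In late torpor against early arousal 4 genes of this list were called, among them FN1 and C3, the central complement component (1.39), which differed between early torpor and late arousal by 0.51 (SE 0.33, unadjusted p = 0.14).

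Bile acid and organic anion transporters and enzymes were higher in 9 of 11 cases with a median of 0.51, 2 at an unadjusted p under 0.05, and 1 was lower at that level. Without late arousal 04-30, 9 were again higher, 2 at that level, none was lower at it, and the median was 0.59. Of the named genes with all 8 arrays, 63.4% were higher, and 15.5% and 6.09% were higher and lower at that level. ABCG2, an efflux pump of the canalicular membrane, was at 8.87, 6.80, 11.7, and 8.47 in early torpor and at 5.80, 4.98, 4.07, and 3.79 in late arousal (difference 0.94, SE 0.27, adjusted p = 0.29). Its difference between late torpor and early arousal was 0.03, and early arousal animals were at 6.21 to 11.7. SLC10A1, the bile acid uptake transporter, was at 54.9 to 121 in early torpor and at 22.1 to 101 in late arousal. ABCC4, a basolateral efflux pump, was lower with overlap, by -0.66.

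Stress- and hormone-responsive regulators had no common direction, with 10 higher and 11 lower of 21, 3 each at an unadjusted p under 0.05, and a median of -0.03. Without late arousal 04-30 the counts were again 10 and 11, with 2 each at that level, and the median was again -0.03. With single arrays left out the median ran from -0.10, without early torpor 2000-43, to 0.14, without early torpor 04-15. Among the named genes with all 8 arrays 63.4% were higher, and 15.5% and 6.09% were higher and lower at that level. TP53INP1, a p53-induced protein of autophagy and cell death, was at 5.69, 14.9, 5.13, and 11.6 in early torpor and at 17.4, 57.4, 14.0, and 43.3 in late arousal. One early torpor animal (04-15) exceeded the lowest late arousal animal, and the difference was -1.73 (SE 0.47, 3.31-fold lower, adjusted p = 0.29). SAT1, the enzyme that starts polyamine breakdown, was at 4.58, 3.60, 3.22, and 4.71 against 1.46, 2.00, 2.29, and 2.82, a difference of 0.93 (SE 0.28). TOB1, an antiproliferative factor, differed by 0.98 and THRA, a thyroid hormone receptor, by 0.47, both with groups apart, and ZBTB16, a zinc finger repressor, by -0.49 (0.562 to 0.822 against 0.948 to 1.18). EGR1, an immediate early gene, differed by -0.11 (-0.75 to 0.27 with single arrays left out).

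Proteasome and ubiquitin pathway genes split into 11 higher and 9 lower, with 3 each at an unadjusted p under 0.05 and a median of 0.17. When late arousal 04-30 was left out, 13 were higher and 7 lower, with 3 and 0 at that level and a median of 0.21. Under quantile normalization 10 were higher and 10 lower, and without late arousal 04-72 the median was 0.01. The named genes with all 8 arrays were higher in 63.4% of cases, and 15.5% and 6.09% were higher and lower at that level. PSMB6, a catalytic beta subunit of the proteasome, was at 2.75, 2.41, 2.49, and 2.45 in early torpor and at 1.32, 0.849, 1.14, and 2.16 in late arousal (difference 0.97, SE 0.37, adjusted p = 0.45). WWP1, a ubiquitin ligase, differed by 0.79 (2.38 to 3.31 against 1.41 to 2.10). UBQLN1, a shuttle factor to the proteasome, was lower by -0.84, with 12.5 in late arousal 04-30 against 5.00 to 5.21 in the other 3, and -0.52 without that array. DERL2, a factor of endoplasmic reticulum-associated degradation, was lower by -0.87 with overlap.

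Marker genes for the liver and for other cell types were read in the same way. The 6 hepatocyte markers had a summed level of 578 to 844 in early torpor and 461 to 616 in late arousal, ALB stood at 259 to 536 on the 8 arrays, and 4 of the 6 were higher in early torpor, or 3 of 6 under quantile normalization. Their median difference was 0.54, or 0.44 without late arousal 04-30 and 0.20 under quantile normalization. At an unadjusted p under 0.05, 3 were higher, and 3 were higher without overlap. The median deviation of the hepatocyte markers from their own means was 0.24 to 0.39 in early torpor and -0.41 to -0.22 in late arousal, without overlap. The 8 markers of blood and immune cells had a summed level of 22.1 to 41.2 in early torpor and 11.7 to 16.4 in late arousal, without overlap, and 7 were higher with a median of 0.58, or 8 with a median of 0.50 without late arousal 04-30. A sum over probes weighs each by its level, so that the brightest of these markers count most in it. The median deviation of these markers from their own means was 0.33, -0.21, 0.29, and 0.96 in the early torpor animals and -0.64, -0.26, -0.27, and -0.15 in the late arousal animals, so that on this measure the groups overlapped through early torpor 04-15. HBA2, the alpha chain of hemoglobin, was at 2.96, 7.81, 3.61, and 1.24 against 0.824, 1.10, 1.78, and 1.02, FCGR3A, an Fc receptor of macrophages and natural killer cells, at 2.95 to 13.7 against 1.72 to 2.81. LYZ, lysozyme of phagocytes, was at 6.46 to 14.4 against 2.54 to 5.48. By their sum, but not by their median deviations, the blood and immune markers stood wholly higher in early torpor. The hepatocyte markers and the ribosomal, secreted protein, fatty acid oxidation, respiratory chain, and drug metabolism lists had medians of 0.54, 0.83, 0.42, 0.48, 0.30, and 0.47. Those of the glucose, fatty acid and triglyceride synthesis, and sterol lists (0.18, 0.19, and 0.17) were near the 0.17 of all named genes. The part of the blood and immune markers in the list differences was not tested. The 9 fibroblast and vessel markers summed to 9.76 to 16.6 against 10.0 to 11.5, and the 8 muscle markers to 4.45 to 4.91 against 4.33 to 5.58, with medians of -0.16 and -0.04. No marker of the 4 lists was at or below 0 on any of the 8 arrays. In bulk liver, fewer cells of a type and less RNA per cell cannot be told apart.

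The torpor-arousal pair at the end of a bout, late torpor against early arousal, shares no animal with early torpor and late arousal, but the fit of all 24 arrays gives both pairs 1 estimate of the spread. It had 64 calls among 9596 probes (0.667%), 63 of them higher in late torpor. This count moved widely with the processing, from 2 under quantile normalization and 28 with the animal prefix as a block to 140 on A1 filters, 148 with the filter set as a block, 177 with mean pixels, 179 with array weights, and 709 with normexp correction. It was 92 without late arousal 04-30 and 33, 37, and 39 without early torpor 04-15, 04-81, and 04-16. Of the 261 probes higher in early torpor without overlap, 224 (85.8%) also had a higher mean in late torpor than in early arousal, as did 57.5% of all probes. Without overlap there as well were 29, which is 11.1% of the 261 and 6.64% of the 437 such probes of the other pair, where 4.61% of all probes were higher in late torpor without overlap and 1.08% lower. Of the 163 probes lower in early torpor without overlap, 94 (57.7%) were also lower in late torpor, as were 42.5% of all probes, and 5 (3.07% of the 163, 4.85% of 103) without overlap. The test of the difference between both contrasts called none of 9594 probes (0%), and 618 stood at an unadjusted p under 0.05 (6.44%). By list, the median difference was larger between early torpor and late arousal for ribosomal proteins (0.83 against 0.57) and larger at the end of the bout for secreted proteins (0.42 against 0.72), and the difference between lists was not tested.

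**Figure D4:**
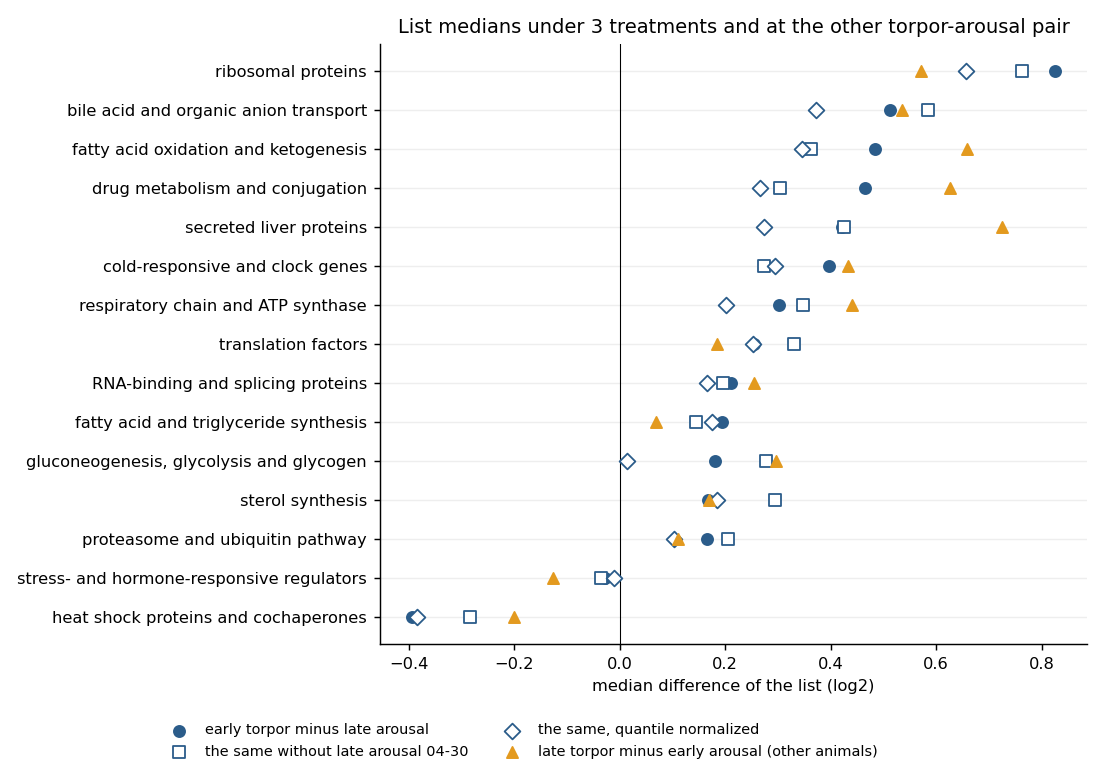
Median difference (log2) of each gene list between early torpor and late arousal with all 8 arrays (filled circle), without late arousal 04-30 (open square), and after quantile normalization (open diamond), and between late torpor and early arousal in other animals (triangle). Ribosomal proteins are at 0.83, 0.76, 0.66, and 0.57, and heat shock proteins are below 0 in all 4 cases (-0.39, -0.28, -0.38, and -0.20). Arrays of both torpor-arousal pairs were part of the study's selection of the named genes.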

How the data were processed

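Liver RNA of 24 AGS was linearly amplified, labeled with 33P, and hybridized to nylon filters with 9600 cDNA probes, in 1 batch per the labels. The authors deposited ImaGene 6.1.0 spot and background intensity values per array, and a table of background-subtracted signals as a ratio to the array median, with a floor of 0.002. The ratio was recomputed from median pixels and log2 transformed, with values at or below 0 as missing. Symbols were paired with 1329 of 9600 probes by the state means of the study's gene table, within 1e-04, and all 1329 matched. The other 8271 probes are unnamed here.

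Early torpor was compared with late arousal by lmFit and eBayes of limma 3.58.1 (R 4.3.3) in a fit of 5 groups over 24 arrays, with Benjamini-Hochberg adjustment over all probes tested, and again without late arousal 04-30. In the same fit, late torpor was compared with early arousal, and the difference between both contrasts was tested. The analysis of variance used Storey's q and Tukey's test at 0.05. The script was tested on simulated data. The p-values measure the spread between animals of a stage, which includes that between filter sets where a stage holds both. The number of arrays also limits the precision. Tables used pandas 2.3.3, and plots matplotlib 3.10.9.

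The 70 named genes are the called genes, then the 12 with the smallest p and no overlap in each direction, 6 in each direction by the same rule without 04-30, and the 4 smallest p in each of 15 lists. Values of 2 genes that meet this rule are left out here. Other genes named are list or marker members, chosen after their values were seen. The comparison, the lists, and the rules were chosen with earlier results of these data known.

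Alternatives were the winter arrays alone, the 8 arrays alone, A1 filters, the filter set or the animal prefix as a block, array weights, quantile normalization, normexp correction (offset 50), empty spots as missing, a floor, the deposited ratio, mean pixels, leaving out probes not over 2 times the background on 4 of the 8 arrays, and leaving out each array. No probe sequences or coordinates were used here.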

Additional observations from a re-analysis of the deposited data

Results flagged for a closer look

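Of 140 groups of 4 animals (70 named genes in 2 stages), 11 held an animal far from the other 3 by Dixon's ratio at a critical value of 0.829, where chance marks about 1 in 20. Late arousal 04-30, on the A2 filter, was the distant animal for CIRBP (1.44, others 3.51 to 3.66), KLF9 (1.72, others 2.61 to 2.80), and UBQLN1 (12.5, others 5.00 to 5.21). Late arousal 04-31 was the distant animal for LPIN2 (9.87, others 2.10 to 2.63) and WWP1 (2.10, others 1.41 to 1.49). Late arousal 2000-22 was the distant animal for LASS2 (3.62, others 4.51 to 4.71) and RPL12 (0.950, others 1.90 to 2.17). In early torpor, 04-15 was distant for INSIG1 (2.06, others 2.64 to 2.75) and TLE3 (0.318, others 0.620 to 0.691), 04-16 for UBQLN1 (2.11, others 4.09 to 4.34), and 04-81 for ZBTB16 (0.562, others 0.776 to 0.822).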

How the results depend on the processing

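No paired analysis was possible because each array holds a different animal, and the replicate numbers used here follow the order of the samples. The count of called probes, 0 with all arrays, was 1 (an unnamed probe near background, lower) over the 17 winter arrays or the 8 arrays alone, 1 (MAGEE2, higher) on A1 filters only, with the filter set as a block, or with array weights, 1 (CIRBP, adjusted p = 0.046) with normexp correction, and 96 with the analysis of variance and Tukey's test. It was 0 under quantile normalization, the animal prefix as a block, a floor, empty spots as missing, the deposited ratio, mean pixels, and without dim probes. Leaving out each array in turn gave 0 to 4 calls. The 4 arose without late arousal 04-72 (CIRBP, RPL3, and 2 unnamed probes, adjusted p = 0.049), the 1 without late arousal 04-30 (MAGEE2), and there was none without any other array. The count at an unadjusted p under 0.05 ranged from 653 to 890. The count of probes at which both torpor-arousal differences differed was 0 without late arousal 04-30, with the filter block, and under quantile normalization.

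All 70 named genes kept their direction under the 22 alternatives that gave a value, in 1540 recomputed values. Part of this was fixed beforehand. Some alternatives changed only the test and not the difference. For CIRBP it was 1.45 in the fit of all arrays, over the winter arrays, and with the animal prefix as a block. Genes chosen for groups without overlap cannot change sign when a single array is left out. Of the recomputed values, 36 were past a threshold that the fit of all arrays did not pass, most in the analysis of variance. Adjusted p over the alternatives ran from 0.046 to 0.51 for CIRBP and from 0.013 to 0.57 for MAGEE2.

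List medians that moved beyond the spread between animals were those of heat shock proteins (-0.14) and RNA-binding proteins (0.14) with normexp correction, and of the glucose list (0.013) and secreted proteins (0.27) under quantile normalization. With single arrays left out the ranges were 0.11 to 0.26 for RNA-binding proteins, 0.29 to 0.45 for translation factors, 0.016 to 0.28 for the glucose list, -0.10 to 0.14 for stress- and hormone-responsive regulators, and 0.011 to 0.21 for the proteasome list. The lowest values of RNA-binding and proteasome genes and the highest of translation factors came without late arousal 04-72, the lowest of the glucose list without late arousal 2000-22, and the highest of the regulators without early torpor 04-15. The median of fatty acid and triglyceride synthesis changed sign without early torpor 2000-43, to -0.02. The cause was not tested.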
